A study of Drosophila melanogaster with 16 samples.

Results

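Sex differences of the normal fly midgut were described by comparing the 4 libraries of virgin female controls with the 4 libraries of virgin male controls, 8 of the 16 libraries of the series. The libraries were taken by their labels, and all 9314 genes with enough reads to be tested, of 16680 in the table, were compared. RNA of dissected midguts of Drosophila melanogaster was sequenced after poly(A) selection, with 30 guts pooled for each library. Both control groups carried the genotype w1118; mex1-GAL4 TS/+, and the remaining 8 libraries, also virgin females and males, are labelled MycRNAi. The mex1-GAL4 driver acts in enterocytes, the absorptive cells of the midgut, and the controls of both sexes carry it. Neither age nor diet of the flies is given in the sources used here. The p-values below rest on the spread between pools of guts within each group, estimated over all 16 libraries. The 8 libraries labelled MycRNAi thus enter that estimate too.

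The midgut digests food with secreted enzymes and absorbs it through enterocytes, while enteroendocrine cells release peptide hormones and stem cells renew the epithelium. Female flies of many strains have a larger midgut with more stem cell division than males, and cell-autonomous sex determination through Sxl and tra is known to act in this tissue. In males the single X chromosome is transcribed at a higher rate by the dosage compensation complex, which contains the protein Msl-2 and the non-coding RNAs roX1 and roX2.

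Total counts ranged from 18986654 to 31752151 in the female controls and from 27922532 to 50720292 in the male controls. The first principal component of the 8 libraries held 39.4% of the variance and separated the sexes, with scores from 9.13 to 37.5 in females and from −25.9 to −17 in males. Female library 2 and male library 5 stood apart from the others of their sex. Male library 5 had the extreme score of the second component (−32.2), and the 50 most abundant genes held 36.2% of the counts in female library 2 and 38.6% in male library 5, against 26.9% to 34.9% in the other controls. Among 12 markers of Malpighian tubules, an excretory organ attached to the gut, all had a negative log2 fold change (female minus male) but none passed the test, and their summed level was 141 to 183 CPM (normalised counts per 1000000) in females and 228 to 271 CPM in males. Tubule markers thus moved with the male-higher genes below, and their part in those results was not tested.

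The sexes differed in 959 genes, of which 468 were higher in females and 491 higher in males. A gene was called when its edgeR p, adjusted over all 9314 genes, was below 0.05. The called share was 10.3% of tested genes, 5.02% for genes higher in females and 5.27% for genes higher in males. Counts in the gene lists below are to be read against these shares. The median log2 fold change was 0.76 among genes called higher in females and −0.93 among genes called higher in males, and −0.011 over all tested genes. More than 2-fold differences were found in 121 genes higher in females and 221 higher in males. Of the called genes 805 showed no overlap between the 4 female and the 4 male libraries, which was true of 14.3% of all tested genes. The split by direction depended on scaling: with total counts alone 497 genes were higher in females and 297 in males, or 62.6% instead of 48.8% female-higher. The female-higher share was 40.9% without library 2 and 59.3% without library 4. The number of called genes depended on single libraries too, with 603 called without female library 1 and 574 without male library 6. In a fit to the 8 control libraries alone 538 genes were called. The female-higher count was 299 without library 1, 266 without library 2, 259 without library 6 and 273 without library 8, and the male-higher count was 304 without library 1 and 315 without library 6.

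**Figure D1:**
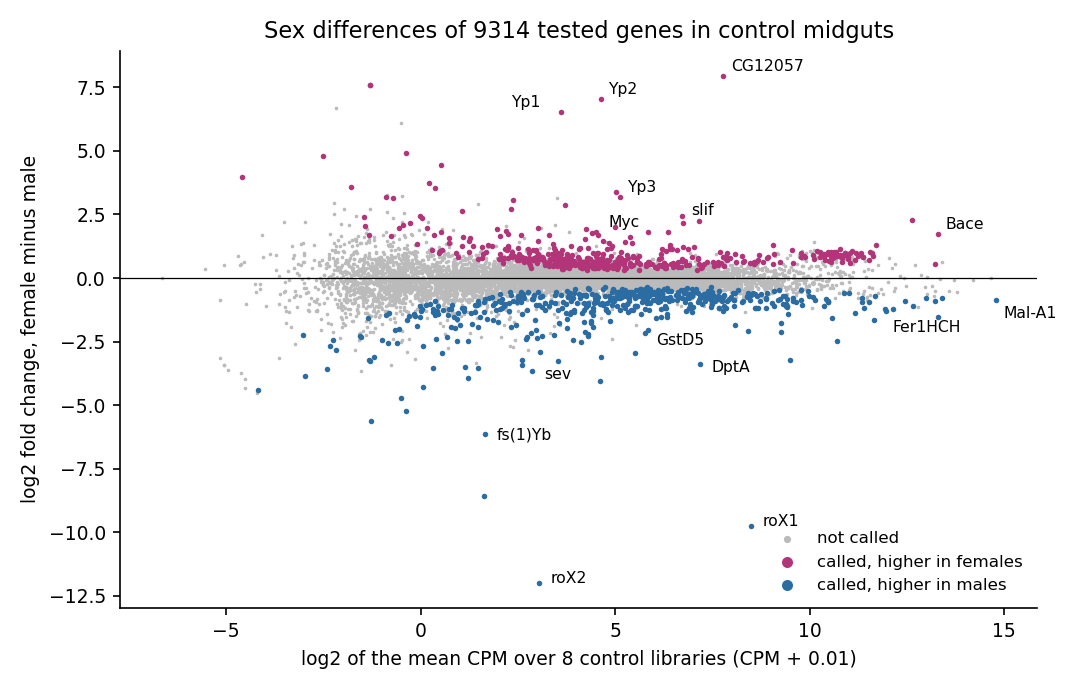
Mean level over the 8 control libraries (log2 CPM, horizontal) and log2 fold change (female minus male, vertical) of each of 9314 tested genes. The 468 genes called higher in females (magenta) and the 491 called higher in males (blue) are spread over the whole range of levels. Among the labelled genes CG12057 (7.94), Yp2 (7.04) and Yp1 (6.52) lie highest, and the dosage compensation RNAs roX1 and roX2 lowest.

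Genes of sex determination and dosage compensation were examined for agreement with the labels. The level of roX1 was 1.81, 0.593, 0.332 and 0.728 CPM in females and 754, 677, 597 and 853 CPM in males (log2 fold change −9.73, edgeR adjusted p = 8.81e-09, SE 0.49). For roX2 no read was found in the females, against 2210 reads in the males at 11.1, 15.1, 19.9 and 20.1 CPM, so its level was at least 490-fold higher in males by a floor of 3 reads over the female group. The fitted value of roX1 moved by over 1.5 times without library 1, and its call remained. All 8 libraries thus followed their sex labels in both RNAs. The level of msl-2 was 10.5, 8.53, 7.19 and 8.32 CPM in females and 24.7, 28.4, 24.1 and 35.4 CPM in males (−1.71, edgeR adjusted p = 4.03e-05, SE 0.18), also without overlap. These were the 3 called members of 9 dosage compensation genes.

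In the sex determination list of 10 genes 1 member was called in each direction. The effector gene dsx, which encodes sex-specific transcription factors, had 19.2, 15.7, 35 and 12.4 CPM in females and 35.6, 38.7, 62.5 and 61.4 CPM in males (log2 fold change −1.27, edgeR adjusted p = 0.0114, SE 0.29). The highest female library lay just under the lowest male library. The splicing regulator tra was higher in females, at 9.18 ± 1.85 against 5.40 ± 1.34 CPM (SD, n = 4 per group; log2 fold change 0.76, edgeR adjusted p = 0.0477), a call that was lost without any of the libraries except 3. The gene counts do not separate the sex-specific transcripts of Sxl, tra, dsx or fru. Values for Sxl (0.40, edgeR adjusted p = 0.102), tra2 (0.18, edgeR adjusted p = 0.632) and fru (0.21, edgeR adjusted p = 0.585) did not pass the test.

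None of the tested gonad markers was called between the sexes. Of 27 testis genes 9 had no read in any control library, including the sperm genes Mst87F, ProtA and ProtB, and the list summed to 22.3 to 33.1 CPM in females and 23 to 38.6 CPM in males. The list had 6 tested members. The 16 accessory gland genes summed to at most 0.957 CPM in females and 1.16 CPM in males, and 4 of them were at 0. The 23 ovary genes summed to 28.2 to 29.6 CPM in females and 31.0 to 35.2 CPM in males, with 6 tested members.

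Genes on the X chromosome were called more often than autosomal genes. Of 1545 tested X-linked genes 225 were called (14.6%), 127 higher in females and 98 higher in males, against 732 of 7747 autosomal genes (9.45%), 340 and 392. In shares, 8.22% of X-linked genes were higher in females and 6.34% higher in males, compared with 4.39% and 5.06% of autosomal genes. The median log2 fold change was 0.029 on the X and −0.016 on the autosomes, with quartiles of −0.24 and 0.30 on the X and −0.27 and 0.21 on the autosomes. The sex differences of X-linked and autosomal genes were thus both centred near 0. The difference in called shares is a description and was not tested. Without library 6 the X-linked calls were 151, and with the 8 control libraries alone they were 139.

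**Figure D2:**
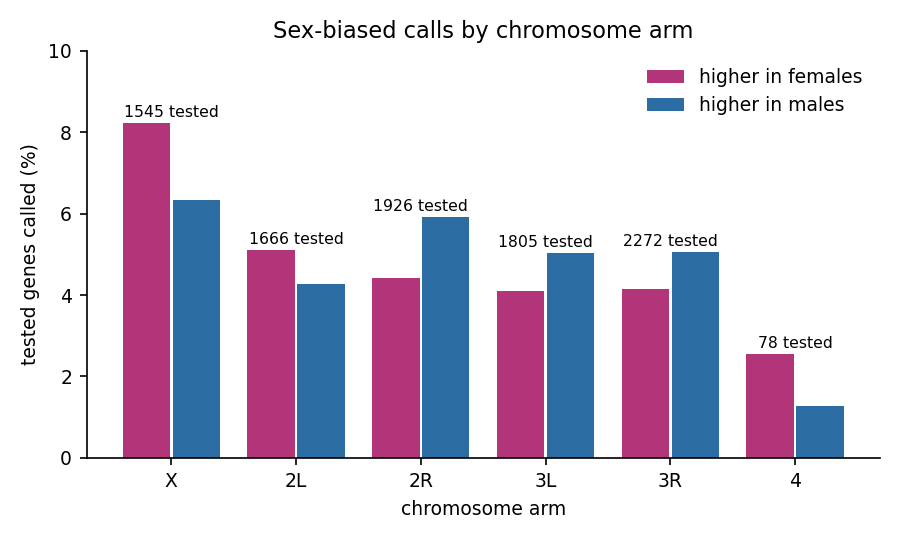
Percentage of tested genes called higher in females (magenta) or in males (blue) on each chromosome arm, with the number of tested genes above the bars. The X has the highest share in both directions, 8.22% and 6.34%; the small chromosome 4 has 3 called genes of 78.

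X-linked genes that were several-fold higher in males, beside the roX RNAs, included fs(1)Yb, a piRNA pathway gene known from the somatic cells of the ovary. Its level was 0.0532, 0, 0.166 and 0.104 CPM in females and 5.61, 6.19, 5.98 and 6.88 CPM in males (log2 fold change −6.15, edgeR adjusted p = 1.54e-05, SE 0.58). The fitted value of fs(1)Yb moved by over 1.5 times without library 3, and direction and call did not change. The receptor tyrosine kinase gene sev, known from photoreceptor development, had 1.86, 0.547, 0.706 and 1.20 CPM in females and 21.6, 10.2, 9.85 and 12.5 CPM in males (−3.67, edgeR adjusted p = 6.57e-05, SE 0.41). The gene tyn, which encodes a zona pellucida domain protein of apical surfaces, had 0.706 to 1.66 CPM in females and 10.3 to 11.8 CPM in males (−3.40, edgeR adjusted p = 1.17e-07, SE 0.22). On the opposite strand it overlaps CG17707 (−2.45, called) over 5696 bases and lncRNA:CR45473 (1.02, called) over 1476 bases. The strand setting is not given, so the source of these reads is uncertain. The levels of fs(1)Yb, sev and tyn were low in every female library and several-fold higher in every male library. Among autosomal genes CG6026 had 1 read over the 4 females, in library 1, and 823 reads over the 4 males, a ratio of 548 with a 95% counting interval from 98.0 to 21700. CG7017 was at 0.904, 0.274, 9.47 and 0.208 CPM in females and 87.1, 51, 22.7 and 22.4 CPM in males (−4.03, edgeR adjusted p = 0.0125, SE 0.94), and female library 3 moved its fold change by over 1.5 times.

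Among genes higher in females, the yolk protein genes showed the greatest fold changes of the lists. Yolk proteins are made in the female fat body and the follicle cells of the ovary and are taken up by oocytes. The level of Yp1 was 6.49, 27.3, 50.9 and 12.3 CPM in females and 0.713, 0, 0.501 and 0.0207 CPM in males (log2 fold change 6.52, edgeR adjusted p = 0.000553, SE 0.93). For Yp2 the values were 28.3, 66.5, 76 and 25.1 CPM against 0.917, 0.281, 0.434 and 0.0829 CPM (7.04, edgeR adjusted p = 1.78e-05, SE 0.68). Yp3 had 50.7, 98.6, 51.7 and 48.4 CPM in females and 14.9, 6.16, 3.37 and 3.44 CPM in males (3.19, edgeR adjusted p = 0.000964, SE 0.50). None of the 3 genes overlapped between the sexes, although the female libraries spread widely. The fold change of Yp1 moved by over 1.5 times without library 3 or 5, and that of Yp3 without library 5.

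Of 9 tested genes in the list of yolk and fat body genes 4 were higher in females and none in males. The fourth was apolpp, the precursor of the main lipoprotein of the haemolymph, at 7.28, 10.1, 26.1 and 8.58 CPM in females and 2.24, 4.64, 4.44 and 1.93 CPM in males (log2 fold change 1.98, edgeR adjusted p = 0.0349, SE 0.57). That call was lost without library 2, 3, 5, 6, 7 or 8. The list summed to 95.0 to 278 CPM in females and 7.69 to 27.4 CPM in males. Ovary markers summed to less in females than in males, as given above, but only 6 of 23 had enough reads to be tested. Whether fat body or ovary RNA was present in the dissected guts, and its part in the yolk gene values, was not tested.

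Genes of growth control and nutrient uptake were higher in females in part. Myc, the transcription factor that drives ribosome production and cell growth, had 127, 84.6, 60.5 and 84.9 CPM in females and 22.7, 19.8, 25.4 and 34 CPM in males (log2 fold change 1.80, edgeR adjusted p = 0.000695, SE 0.27). Every female library was above every male library. On the opposite strand Myc overlaps CG12535 (1.69, not called) over 3754 bases, and the strand setting is not given. In the Myc network list 3 of 10 members were called, all higher in females. The other two were bigmax, whose product dimerizes with the sugar sensor Mondo, at 30.5 ± 2.64 and 15.6 ± 1.62 CPM (0.97, edgeR adjusted p = 0.000304, SE 0.13), and sug, a zinc finger gene that responds to dietary sugar. The values of sug were 102, 280, 61.9 and 63.3 CPM in females and 56, 32.4, 21.4 and 36.4 CPM in males (1.80, edgeR adjusted p = 0.0156, SE 0.44). Its call was lost without library 2, 6 or 7 (edgeR adjusted p up to 0.0654), and library 2 moved its fold change by over 1.5 times.

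Amino acid transporters were called in 2 of 11 cases, both higher in females. The cationic amino acid transporter gene slif, which couples amino acid supply to TOR signalling in the larval fat body, had 150, 274, 214 and 69.3 CPM in females and 44.1, 39.5, 27.2 and 46.3 CPM in males (log2 fold change 2.17, edgeR adjusted p = 0.000948, SE 0.34). NAAT1, a transporter of essential amino acids, had 50.3, 56.9, 33.9 and 24.2 CPM in females and 20.3, 19.8, 11.4 and 21.2 CPM in males (1.19, edgeR adjusted p = 0.00976, SE 0.26). Neither gene overlapped between the sexes, and the median of the list was 0.09.

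Of 21 tested genes of ecdysone and juvenile hormone signalling 2 were higher in females (9.52%) and none in males. Among all tested genes 5.02% and 5.27% were called, or 10.3% in either direction. Female levels of gce, a receptor for juvenile hormone, were 54.4, 64, 51 and 51.6 CPM and male levels 25.1, 16, 16.8 and 25.1 CPM (log2 fold change 1.41, edgeR adjusted p = 0.000101, SE 0.17). Oatp74D, which imports ecdysone into cells, had 8.24, 8.16, 6.94 and 5.77 CPM in females and 1.43, 3.24, 1.74 and 2.26 CPM in males (1.74, edgeR adjusted p = 0.00124, SE 0.28). Both genes separated the sexes completely. In the insulin and TOR list of 20 genes Rheb, the GTPase that activates TOR, was higher in females (112 ± 10.5 against 79.0 ± 2.12 CPM; 0.50, edgeR adjusted p = 0.00517, SE 0.10). ImpL2, a secreted antagonist of insulin signalling, was higher in males, at 13.8, 7.25, 10.5 and 19.2 CPM in females and 22.6, 35.4, 31 and 33.8 CPM in males (−1.28, edgeR adjusted p = 0.00368, SE 0.24). The remaining 18 members of that list were not called, and its median was 0.03. Its called share was 5.0% in each direction, near the shares of all tested genes. Without library 4, 2 members were called in each direction, and without library 5 or 6, 2 were higher in males.

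**Figure D3:**
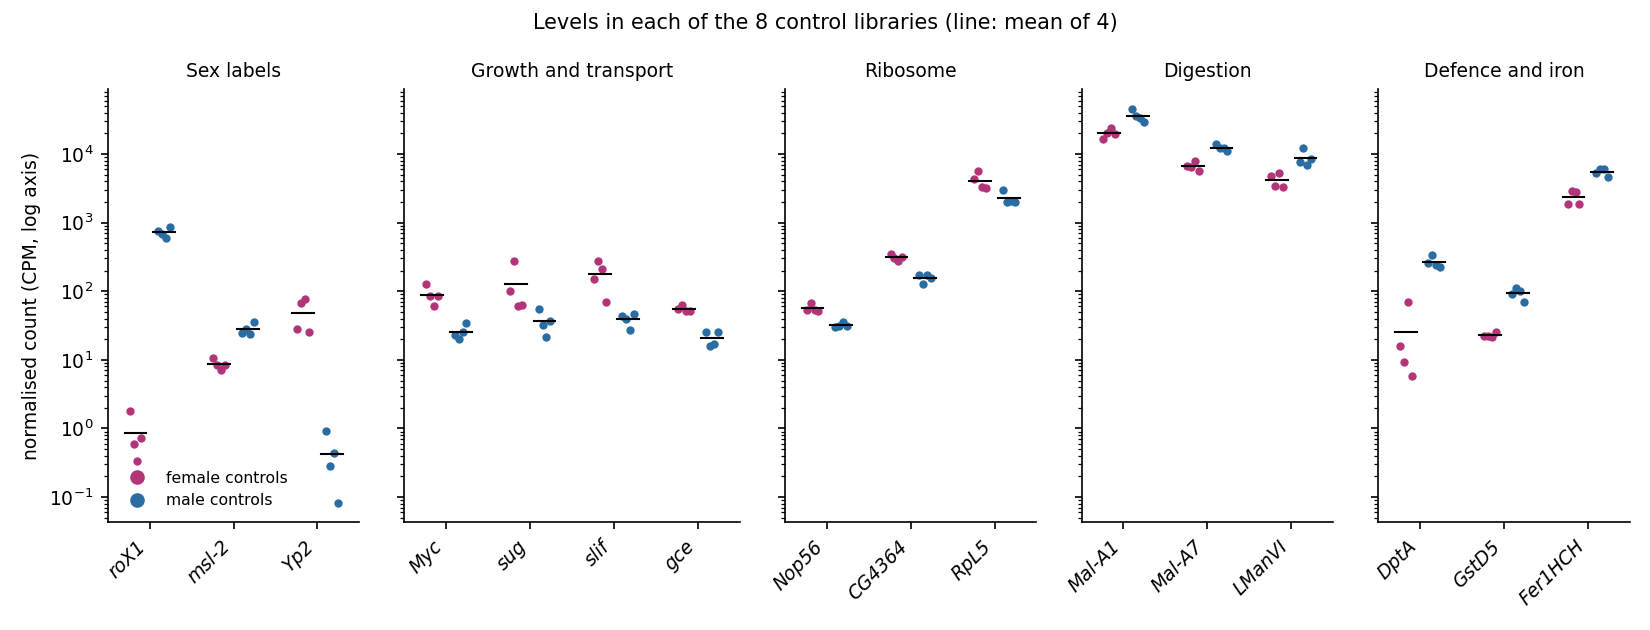
Normalised counts (CPM, log axis) of 15 named genes and roX1 in each of the 4 female (magenta) and 4 male (blue) control libraries; black lines are means of 4. For Myc the female libraries lie between 60.5 and 127 CPM and the male libraries between 19.8 and 34 CPM, whereas for RpL5 and sug the lowest females lie close to the highest male.

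Transcripts for building ribosomes were higher in females. In the list of ribosome biogenesis genes 21 of 38 members were called higher in females and none in males, with a median log2 fold change of 0.60. The count was 18 to 26 when any library was left out. The listed member CG4364 had 353, 304, 280 and 311 CPM in females and 172, 126, 172 and 158 CPM in males (0.99, edgeR adjusted p = 0.000553, SE 0.14). Nop56, a core protein of the small nucleolar ribonucleoproteins that methylate ribosomal RNA, had 54, 66.7, 54.1 and 50.9 CPM in females and 30.3, 30.8, 35.9 and 30.7 CPM in males (0.82, edgeR adjusted p = 0.000161, SE 0.10). Its partner gene nop5 had 51.5 ± 6.33 and 27.2 ± 2.93 CPM (0.92, SE 0.14). On the same strand nop5 overlaps x16 (0.04, not called) over 1991 bases. Non1, a nucleolar GTPase gene, was at 1200 ± 72.5 and 675 ± 151 CPM (0.83, SE 0.16), nclb at 42.7 ± 6.62 and 25.3 ± 1.59 CPM (0.76, SE 0.12), and LTV1, which acts in export of the small subunit, at 175 ± 20.8 and 103 ± 14.2 CPM (0.77, SE 0.13).

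Cytosolic ribosomal protein genes showed the same direction with a larger spread between libraries. All 84 tested members had positive log2 fold changes, with a median of 0.84, and 50 were called higher in females. In 47 of the 84 the sexes did not overlap. RpL5 had 4250, 5650, 3270 and 3180 CPM in females and 3020, 1970, 2080 and 1970 CPM in males (0.86, edgeR adjusted p = 0.0128, SE 0.20), and male library 5 came close to the lowest females. RpS2 had 2900, 4510, 2180 and 2170 CPM in females and 1930, 1290, 1250 and 1180 CPM in males (1.06, edgeR adjusted p = 0.0105, SE 0.24). The count of called members depended on single libraries. It was 24 without library 1, 5 without library 2, 5 without library 6, 13 without library 7 and 6 without library 8, and 54, 69 and 70 without library 3, 4 or 5. Without library 2 the median was 0.56. In a fit to the 8 control libraries alone 4 members were called, with a median of 0.86, and RpL5 and RpL8 were no longer called (edgeR adjusted p = 0.0654 and 0.0592).

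Translation factors and mitochondrial ribosomal proteins were higher in females in a minority of members. Of 43 translation factors 15 were called, all higher in females, with a median log2 fold change of 0.40. The examples eIF3m, at 313 ± 54.9 and 184 ± 37.3 CPM (0.77, edgeR adjusted p = 0.00552, SE 0.16), and eIF2A, at 426 ± 21.8 and 283 ± 18.3 CPM (0.59, edgeR adjusted p = 0.00456, SE 0.12), encode initiation factors. The count fell to 9, 7, 7 and 6 without library 1, 2, 6 or 8 and to 5 with the 8 control libraries alone. Of 72 mitochondrial ribosomal protein genes 10 were called, all higher in females, such as mRpS31 (39.0 ± 6.07 and 25.3 ± 1.25 CPM; 0.62, edgeR adjusted p = 0.00182, SE 0.11), with 69 of 72 positive. That count was 6, 3, 4 and 3 without library 1, 2, 6 or 8 and 16 without library 4. Among 17 tRNA synthetase genes 2 were called, including TyrRS (137 ± 22.5 and 85.6 ± 11.8 CPM; 0.68, edgeR adjusted p = 0.00377), and 1 was left without library 1, 2, 5, 6 or 7. None of 63 oxidative phosphorylation genes was called, although 60 had positive values with a median of 0.34, and that median was 0.08 without library 2.

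**Figure D4:**
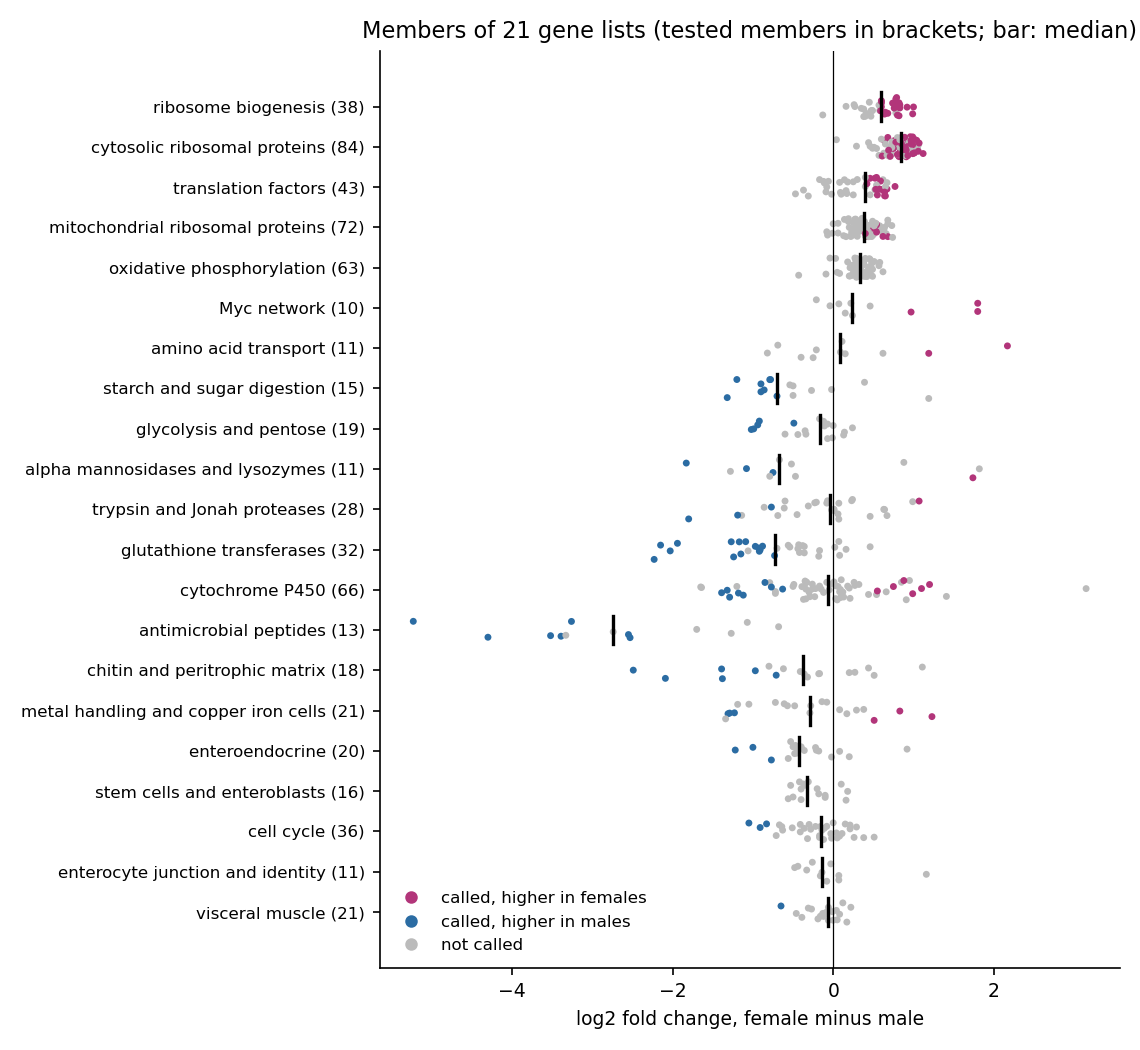
Log2 fold change (female minus male) of each tested member of 21 gene lists, coloured by call, with the list median as a black bar and the number of tested members in brackets. Ribosome biogenesis and ribosomal proteins lie to the right with medians of 0.60 and 0.84, and antimicrobial peptides and glutathione transferases to the left with medians of −2.74 and −0.72; the median of all tested genes is −0.011.

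Outside the lists, the gene with the highest fold change in females by the naming rule was CG12057, at 435, 1040, 148 and 126 CPM in females and 4.43, 1.23, 0.634 and 1.22 CPM in males (log2 fold change 7.94, edgeR adjusted p = 0.000275, SE 1.06). Libraries 2 and 5 each moved that value by over 1.5 times. CG4563 had 55.7, 73.5, 69.7 and 36.8 CPM in females and 4.38, 6.97, 6.98 and 4.35 CPM in males (3.38, edgeR adjusted p = 4.03e-05, SE 0.36). Among abundant transcripts CG12374 had 11500, 19100, 6450 and 5260 CPM in females and 3540, 1720, 1600 and 1910 CPM in males (2.27, edgeR adjusted p = 0.00495, SE 0.45). All 3 genes separated the sexes, with wide spreads among females.

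The aspartyl protease gene Bace, a member of the list of alpha-mannosidases, lysozymes and related proteases, was also abundant, at 12100, 26000, 13800 and 10100 CPM in females and 7240, 4480, 3660 and 3120 CPM in males (log2 fold change 1.74, edgeR adjusted p = 0.00578, SE 0.36). It lies within the hormone gene Dh31 on the same strand, and Dh31 had the opposite direction. Further genes without overlap were the fucosyltransferase gene FucTC, at 38, 45.2, 31.7 and 28.1 CPM against 10.6, 10.6, 8.68 and 10.5 CPM (1.82, edgeR adjusted p = 4.92e-06, SE 0.16), and the calcium-activated potassium channel gene slo, at 27.7 ± 3.42 and 9.64 ± 2.14 CPM (1.53, SE 0.22). The zinc finger gene Plzf was at 15.1 ± 6.46 and 4.67 ± 1.98 CPM (1.68, SE 0.31), and FarO, a fatty acyl-CoA reductase gene, at 6.24 ± 1.76 and 1.98 ± 0.487 CPM (1.66, SE 0.25).

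Lipid genes were called in both directions, and the called factors of gut regions were higher in females. Of 14 tested genes of lipid synthesis and storage 14.3% were higher in females and 7.14% in males, against 5.02% and 5.27% of all tested genes. The female-higher count of that list was 1 to 3 when any library was left out. Of 19 genes of lipases and lipid uptake 5.26% were called in each direction. Acox57D-d, a peroxisomal acyl-CoA oxidase gene, was the only called member of 13 fatty acid oxidation genes (162 ± 48.6 and 73.4 ± 13.9 CPM; log2 fold change 1.14, edgeR adjusted p = 0.00749, SE 0.24). Desat1, which introduces double bonds into fatty acids, was higher in females (466 ± 55.7 and 308 ± 27.8 CPM; 0.60, edgeR adjusted p = 0.0159, SE 0.15). mdy, a diacylglycerol acyltransferase gene of fat storage, was higher in males (8.75 ± 2.09 and 17.7 ± 2.60 CPM; −1.02, edgeR adjusted p = 0.00377, SE 0.20). The lipase gene mag had 1420, 3350, 916 and 747 CPM in females and 715, 672, 464 and 558 CPM in males, a difference that did not pass the test (1.42, edgeR adjusted p = 0.0594, SE 0.46). It passed without library 3 or 4, and library 2 moved its value by over 1.5 times. Of 20 transcription factors of gut regions 13 had negative log2 fold changes, and the list median was −0.15. The 3 called members were all higher in females. They included the homeobox genes cad, known from the posterior gut (59.3 ± 11 and 40.0 ± 3.70 CPM; 0.57, edgeR adjusted p = 0.0147), and lab, which specifies copper cells (20.9 ± 2.46 and 14.7 ± 0.814 CPM; 0.51, edgeR adjusted p = 0.0338). Without library 1 or 6 the list count was 1, and the call of lab was lost without any library except 4. In the fit without library 5, 1 member of the list was called higher in males.

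Among genes for digesting starch and sugar, the maltase genes Mal-A1 to Mal-A8 were higher in males. Of 15 tested members 8 were called and all were maltases, enzymes that split short glucose chains, named Mal-A1 to Mal-A8; none was called higher in females, and the list median was −0.70. The count was 8 or 9 when any library was left out, and 5 with the 8 control libraries alone. The other 7 members were not called. Among them were the amylase genes Amy-p (−0.54, edgeR adjusted p = 0.164), Amy-d (−0.50, edgeR adjusted p = 0.201) and Amyrel (0.39, edgeR adjusted p = 0.53). Mal-A1 had 16700, 19900, 23600 and 19800 CPM in females and 45700, 36100, 33800 and 29600 CPM in males (log2 fold change −0.86, edgeR adjusted p = 0.00335, SE 0.16). Mal-A7 had 6580, 6370, 7950 and 5590 CPM in females and 13900, 12400, 12300 and 11000 CPM in males (−0.90, edgeR adjusted p = 0.00068, SE 0.13). For Mal-A4 the values were 2810, 2650, 3880 and 1680 CPM against 7500, 6780, 5700 and 5320 CPM (−1.20, edgeR adjusted p = 0.00326, SE 0.22), and for Mal-A5 12.2, 14.8, 23.6 and 14.3 CPM against 54.9, 36.8, 40.6 and 29.8 CPM (−1.32, edgeR adjusted p = 0.000948, SE 0.21). In each of these 4 genes all males were above all females. Mal-A2 (−0.78), Mal-A6 (−0.79) and Mal-A8 (−0.90) differed to a similar degree, and Mal-A1 and Mal-A6 lost the call with the 8 control libraries alone (edgeR adjusted p = 0.0653 and 0.0619).

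The maltase genes lie side by side on chromosome arm 2R. With Cyp4e1 on one side and mtt and CG12780 on the other they formed a run of 11 adjacent tested genes called higher in males, from position 8447451 to 8552290 of the BDGP6 assembly (dm6). A run of 7 adjacent glutathione transferase genes, GstD10, GstD9, GstD1, GstD2, GstD3, GstD4 and GstD5, lay on 3R from 12364776 to 12376572. In all 9 runs of at least 3 adjacent genes called in the same direction were found, 8 of them higher in males. The shorter ones included GstE6 to GstE8, the chitinase genes Cht12, Cht4 and Cht9, and in females CG16700, CG4991 and Arpc3B on the X. Tandem copies can share reads, and how multiply mapping reads were counted is not given in the sources used here, so values of single members of these clusters are uncertain.

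**Figure D5:**
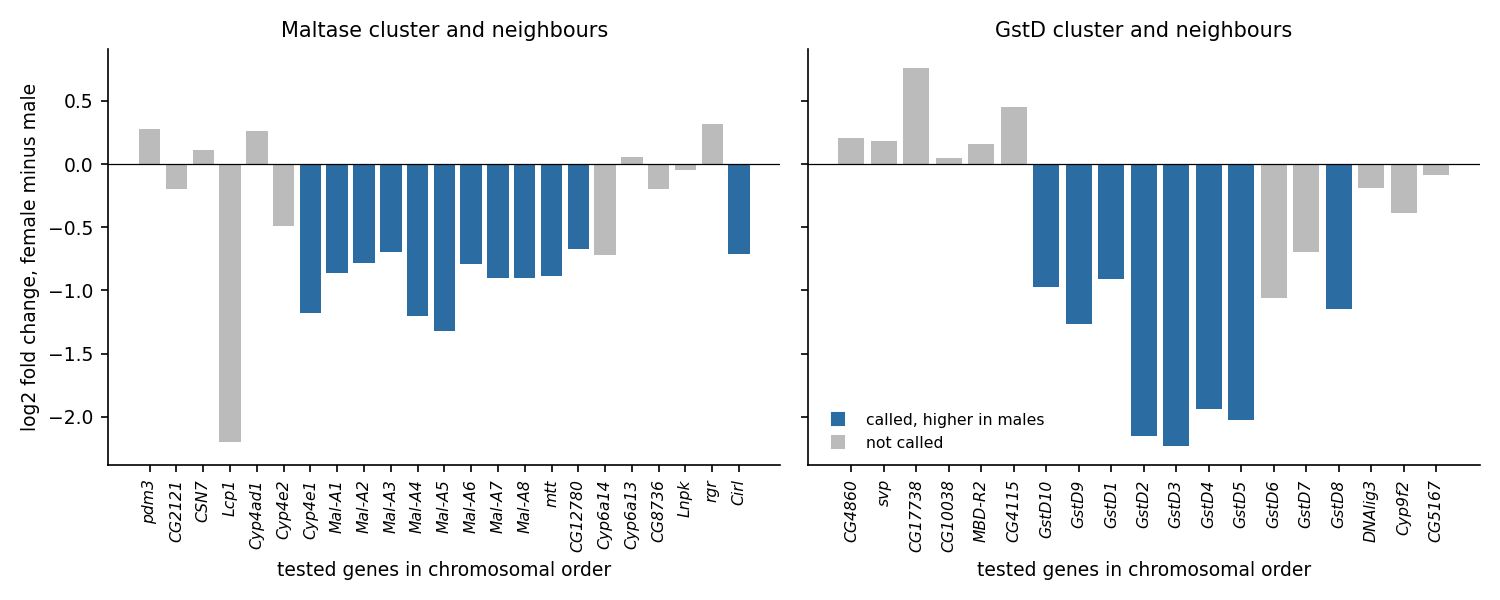
Log2 fold change (female minus male) of the tested genes in and around the maltase cluster (left) and the GstD cluster (right), in chromosomal order with 6 tested neighbours on each side. Called genes (blue, all higher in males) form unbroken runs of 11 and 7 genes, with GstD8 and Cirl called further along, and the fold changes of the uncalled genes (grey) are of both signs.

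Sugar transport and central carbon metabolism showed fewer male-higher genes. The sugar transporter genes sut1, at 29.1 ± 5.45 and 48.0 ± 3.77 CPM (log2 fold change −0.72, edgeR adjusted p = 0.00366, SE 0.14), and sut2, at 35.5 ± 6.22 and 68.7 ± 17.9 CPM (−0.95, edgeR adjusted p = 0.00707, SE 0.20), were the 2 called of 7. Of 19 genes of glycolysis and the pentose phosphate pathway 5 were higher in males and none in females, with a median of −0.17. Pgi, which interconverts glucose and fructose phosphates, had 279, 363, 424 and 333 CPM in females and 966, 777, 555 and 475 CPM in males (−0.99, edgeR adjusted p = 0.0079, SE 0.21). Men, a malic enzyme gene, had 365, 290, 624 and 507 CPM in females and 1120, 981, 811 and 711 CPM in males (−1.02, edgeR adjusted p = 0.00529, SE 0.21). Ldh, which encodes lactate dehydrogenase, was at 212 ± 46.2 and 407 ± 128 CPM (−0.94, edgeR adjusted p = 0.00864, SE 0.21). All males were above all females in Pgi and Men. The list count was 3 without library 1, 2, 4 or 6. Of 19 tested genes of the citrate cycle and citrate transport 1 was higher in males (5.26%) and none in females, with a median of −0.03. That male-higher share was near the 5.27% of all tested genes.

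Other digestive enzymes differed in both directions. In the list of alpha-mannosidases, lysozymes and related proteases 3 of 11 were higher in males, all lysosomal-type mannosidases that trim sugar chains, and 1, Bace as described above, was higher in females. Without library 4, 2 members were higher in females. LManVI had 4700, 3380, 5350 and 3310 CPM in females and 7660, 12200, 7020 and 8520 CPM in males (log2 fold change −1.08, edgeR adjusted p = 0.0049, SE 0.22). LManI was at 189 ± 27.1 and 319 ± 57.0 CPM (−0.75, edgeR adjusted p = 0.00504, SE 0.15). LManIV was at 120 ± 49.4 and 427 ± 183 CPM (−1.83, edgeR adjusted p = 0.0167, SE 0.45), and its call was lost without library 2 or 6 (edgeR adjusted p up to 0.0611). Of 28 trypsins and Jonah proteases, the main secreted serine proteases of the midgut, 1 was higher in females, 3 were higher in males and the median was −0.04. The shares were 3.57% and 10.7%, against 5.02% and 5.27% of all tested genes. The female-higher member was Ser6 (108 ± 11.8 and 51.7 ± 10.2 CPM; 1.07, edgeR adjusted p = 0.000553, SE 0.15). The male-higher members included Jon65Ai (247 ± 86.8 and 565 ± 122 CPM; −1.19, edgeR adjusted p = 0.00989, SE 0.27) and Jon99Ci (5960 ± 1270 and 10200 ± 1400 CPM; −0.77, edgeR adjusted p = 0.0328). Jon99Ci lost the call without library 1, 2, 4, 5, 6 or 7, and 5 members were higher in males without library 2 and 2 higher in females without library 4. The abundant trypsin gene alphaTry gave 0.01 (edgeR adjusted p = 0.99), with female library 2 at 46600 CPM. CG18180 was among the abundant male-higher transcripts, at 4250, 8700, 4640 and 3100 CPM in females and 19600, 15300, 14800 and 10300 CPM in males (−1.54, edgeR adjusted p = 0.0064, SE 0.32).

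Detoxification genes were higher in males mainly among glutathione transferases, enzymes that couple glutathione to toxic or oxidized compounds. Of 32 tested members 15 were higher in males and none in females, with a median log2 fold change of −0.72, and the count was 14 to 17 when any library was left out. GstD5 had 22.2, 22.5, 21.2 and 25.2 CPM in females and 90.6, 111, 101 and 70 CPM in males (−2.03, edgeR adjusted p = 3.93e-06, SE 0.17). GstD3 had 3.56, 2.1, 3.61 and 5.77 CPM in females and 12.7, 24.3, 20.4 and 12.9 CPM in males (−2.23, edgeR adjusted p = 0.000553, SE 0.32). GstD2 had 14.1, 11.8, 9.51 and 44.2 CPM in females and 93.2, 68, 130 and 62.2 CPM in males (−2.15, edgeR adjusted p = 0.00749, SE 0.46), a fold change that female library 4 moved by over 1.5 times. The sexes did not overlap in these 3 genes. GstD9 (−1.27), GstD10 (−0.97), GstT3 (−0.93) and GstS1 (−0.88) were also called. Of 66 cytochrome P450 genes 6 were higher in females (9.09%) and 8 in males (12.1%), against 5.02% and 5.27% of all tested genes, with a median of −0.07. In females they included Cyp318a1 (6.58 ± 0.595 and 2.88 ± 0.893 CPM; 1.20, SE 0.21) and Cyp4g15 (0.75, SE 0.14). In males they included Cyp309a1 (431 ± 45.9 and 934 ± 109 CPM; −1.12, SE 0.17), Cyp6d2 (−1.39, SE 0.17) and the insecticide-resistance gene Cyp6g1 (807 ± 97.3 and 1460 ± 221 CPM; −0.85, SE 0.16). Without library 1, 6 or 7 the female-higher count was 3. Of 28 UDP-glycosyltransferases 2 were higher in females, such as Ugt37C2 (0.74, SE 0.15), and 5 in males, such as Ugt37B1 (−0.82, SE 0.14) and Ugt36A1 (−0.75, SE 0.12). Prx2, a peroxiredoxin gene, was 1 of 2 called of 15 antioxidant genes, at 580 ± 93.2 and 1200 ± 340 CPM (−1.05, edgeR adjusted p = 0.00263, SE 0.19).

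Antimicrobial peptide genes were higher in males. These genes are targets of the IMD and Toll pathways and are known to respond to gut bacteria. All 13 tested members had negative log2 fold changes, with a median of −2.74, and 7 were called. DptA had 16.1, 9.16, 69.8 and 5.82 CPM in females and 254, 338, 242 and 226 CPM in males (−3.39, edgeR adjusted p = 0.0122, SE 0.79), with female library 3 above the other females. DptB had 2.18, 0.684, 5.11 and 0.624 CPM in females and 24.8, 24.9, 19.2 and 15.1 CPM in males (−3.26, edgeR adjusted p = 0.0188, SE 0.82), and Def had 6.91, 4.83, 6.65 and 2.18 CPM in females and 37.5, 32.9, 25.7 and 23.3 CPM in males (−2.53, edgeR adjusted p = 0.0125, SE 0.59). Males did not overlap females in any of the 3. The call of DptB was lost without library 1 or 2 (edgeR adjusted p up to 0.0589), and library 3 moved the values of DptA and DptB by over 1.5 times. The list count was 4 without library 1, 3 without library 2 and 4 without library 5. It was 11 with DESeq2, but 4 with limma voom, 4 with either of the other filters and 5 with the 8 control libraries alone. With DESeq2 size factors or total counts for scaling it stayed at 7. Of 19 genes of peptidoglycan recognition and IMD signalling 2 were higher in males and 1 in females. PGRP-SD, a secreted recognition protein gene that lies inside CG32373 on the same strand, had 2.45, 1.37, 3.24 and 3.28 CPM in females and 21.5, 12.9, 9.48 and 9.49 CPM in males (−2.36, edgeR adjusted p = 0.00151, SE 0.39). That list had 5 male-higher members without library 3 and 1 without library 2, 4, 6 or 7, and no female-higher member without library 3, 6 or 8. Haemocytes are a further source of these peptides: their 6 tested markers all had negative values, none was called, and the 8 markers summed to 7.39 to 17.3 CPM in females and 12.8 to 36.3 CPM in males. Their part in the difference was not tested.

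Of 18 tested genes of chitin and the peritrophic matrix, the lining that separates food from the epithelium, 6 were higher in males and none in females, with a median log2 fold change of −0.38. Cht4, a chitinase gene, had 81.1, 45.8, 144 and 247 CPM in females and 611, 546, 575 and 472 CPM in males (−2.09, edgeR adjusted p = 0.00251, SE 0.37). Its neighbour Cht9 was at 7.38 ± 2.07 and 19.2 ± 3.64 CPM (−1.38, edgeR adjusted p = 0.0117, SE 0.32), and the mucin gene Muc68E at 74.0 ± 9 and 121 ± 22.0 CPM (−0.71, edgeR adjusted p = 0.00451, SE 0.14). The count was 6 whichever library was left out.

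Iron storage genes were higher in males. Ferritin holds iron in the secretory pathway and is made from a heavy and a light chain. The heavy chain gene Fer1HCH had 1880, 2840, 2820 and 1860 CPM in females and 5280, 6100, 6120 and 4620 CPM in males (log2 fold change −1.23, edgeR adjusted p = 0.000297, SE 0.17). The light chain gene Fer2LCH had 1580, 2810, 3020 and 1740 CPM in females and 5380, 6140, 6590 and 4530 CPM in males (−1.31, edgeR adjusted p = 0.000731, SE 0.20). Every male library was above every female library in both genes, which overlap at their ends on opposite strands. Among 21 genes of metal handling and of copper and iron cells 3 were higher in males and 3 in females, and the median was −0.29. The metallothioneins, small metal-binding proteins, were called in opposite directions. MtnD was at 127 ± 57.2 and 311 ± 81.8 CPM (−1.29, edgeR adjusted p = 0.0146, SE 0.31), and MtnA at 150 ± 55.3 and 64.0 ± 11.1 CPM (1.23, edgeR adjusted p = 0.0221, SE 0.32). MtnA lost the call without library 3, 6 or 8 (edgeR adjusted p up to 0.0682), and none of the 3 female-higher calls of the list was left without library 3, 6 or 8, with 1 left without library 1, 2 or 7. Outside this list the zinc transporter gene Zip89B was at 6.98 ± 1.41 and 32.3 ± 16.1 CPM (−2.21, edgeR adjusted p = 0.000512, SE 0.31), and Oat, which encodes ornithine aminotransferase, at 9.09, 4.65, 18.4 and 10.2 CPM in females and 31.1, 118, 99.7 and 75.7 CPM in males (−2.94, edgeR adjusted p = 0.000695, SE 0.44).

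Peptide hormones of enteroendocrine cells were higher in males in part. Of 20 tested genes of these cells 3 were called, all in this direction, with a median log2 fold change of −0.42. The allatostatin gene AstA had 29.1, 32.3, 41.7 and 28.6 CPM in females and 64.1, 102, 74 and 65.7 CPM in males (−1.22, edgeR adjusted p = 0.00122, SE 0.20). Dh31, a gut hormone that also drives muscle contraction, was at 11.2 ± 1.13 and 19.0 ± 2.06 CPM (−0.77, edgeR adjusted p = 0.00606, SE 0.16), and CCHa1 at 12.3 ± 4.39 and 24.6 ± 6.96 CPM (−1.0, edgeR adjusted p = 0.0231, SE 0.26). Neither AstA nor Dh31 overlapped between the sexes. CCHa1 lost the call without library 6, 7 or 8. AstA is also a neuropeptide, and the 10 neuronal markers summed to 11.3 to 15.6 CPM in females and 16.3 to 20.9 CPM in males, with none of 8 tested members called. Their part in the difference was not tested, and in whole guts fewer cells of a type and less RNA per cell cannot be told apart.

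Signalling genes called higher in males included Mkp3, a phosphatase gene that is induced by and limits EGFR signalling, at 29.7, 23.1, 31.3 and 50.8 CPM in females and 33.9, 110, 155 and 99.4 CPM in males (log2 fold change −1.57, edgeR adjusted p = 0.00932, SE 0.35). The lowest male library lay below the highest female library. All 15 tested genes of the list of JAK-STAT and EGFR signals had negative values, 3 were called, and the median was −0.43. Of the called genes ru had no read in the females and only 10 reads in the males. The sexes did not overlap in 1 of the 15. Without library 1 the count of called members was 1 and without library 4 it was 6, with a median of −1.51. Stat92E, the transcription factor of the JAK-STAT pathway, gave −0.10 (edgeR adjusted p = 0.627). crq, a scavenger receptor gene that is also known from haemocytes, was at 143 ± 12.7 and 224 ± 31.4 CPM (−0.65, edgeR adjusted p = 0.00431, SE 0.13), a call lost with total-count scaling (edgeR adjusted p = 0.0667).

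Lists of the other cell types of the midgut had few called members. None of 16 markers of stem cells and enteroblasts was called, although 13 had negative values and the median log2 fold change was −0.33, and their summed levels overlapped at 623 to 787 CPM in females and 680 to 855 CPM in males. Of 36 cell cycle genes 3 were higher in males and none in females, with a median of −0.15, and 1 was called without library 1 or 2. None of 11 genes of enterocyte junctions and identity was called, among them GATAe, an intestinal transcription factor, at 190 ± 50.5 and 201 ± 40.9 CPM (−0.08, edgeR adjusted p = 0.86), and Myo61F, a brush border myosin, at 1950 ± 195 and 2150 ± 319 CPM (−0.14, edgeR adjusted p = 0.665). One of 21 genes of visceral muscle was called, higher in males, and that call was lost without library 1, 6 or 7. None of 23 V-ATPase genes was called (Vha16-1 at 0.07, edgeR adjusted p = 0.769), nor any of 17 heat shock and chaperone genes (Hsc70-4 at 0.25, edgeR adjusted p = 0.56). These lists were read against 10.3% of genes called among all tested.

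Whether the sex difference of controls differed in the guts labelled MycRNAi was tested by the interaction of sex and label, over all 16 libraries. In the libraries labelled MycRNAi 518 genes were called between the sexes (5.56% of tested genes). Of the 959 genes called in controls 190 were called in the same direction there, which is 19.8% of the control calls and 36.7% of the calls in the libraries labelled MycRNAi, and 14 were called in the opposite direction. The interaction was called for 100 genes (1.07%), of which 74 were called in controls, 19 higher in females and 55 higher in males. The interaction contains the sex difference of controls, so its calls are not independent of the control calls. Male library 16 of the libraries labelled MycRNAi held counts for 13845 genes, against 10852 to 11632 in the other 7 of them, and without it the interaction was called for 131 of 9388 tested genes.

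Maltase genes were among those with an interaction. For Mal-A7 the log2 sex difference was −0.90 in controls and 0.08 in the libraries labelled MycRNAi (difference −0.98, edgeR adjusted p = 0.0192, SE 0.19), where females had 3020 and males 2860 CPM on average. Mal-A4 gave −1.20 and 0.43 (difference −1.63, edgeR adjusted p = 0.0192, SE 0.31), and Mal-A8 −0.90 and 0.08 (−0.98, edgeR adjusted p = 0.0274, SE 0.20). For Mal-A1 the interaction did not pass the test (−0.62, edgeR adjusted p = 0.265, SE 0.23). Among female-higher genes Nop56 gave 0.82 in controls and −0.23 in the libraries labelled MycRNAi (difference 1.05, edgeR adjusted p = 0.00318, SE 0.15), and nop5 gave 0.92 and −0.10 (1.01, edgeR adjusted p = 0.0192, SE 0.19). The direction reversed in the 3 mannosidase genes, with LManVI at −1.08 in controls and 1.53 in the libraries labelled MycRNAi (difference −2.61, edgeR adjusted p = 0.00106, SE 0.31). Bace was female-higher in both, by 1.74 and 5.20 (difference −3.45, edgeR adjusted p = 0.00377, SE 0.51).

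For Myc itself the sex difference was 1.80 in controls and 0.56 in the libraries labelled MycRNAi, and the interaction did not pass the test (1.24, edgeR adjusted p = 0.155, SE 0.37). Its mean level was 89.1 CPM in female and 25.5 CPM in male controls, against 59.0 and 39.9 CPM for the females and males labelled MycRNAi. The genes gce (1.41 and 1.80), Ser6 (1.07 and 1.11), Cyp318a1 (1.20 and 1.23), tyn (−3.40 and −3.45), Muc68E (−0.71 and −0.68) and Cht4 (−2.09 and −1.91) were called between the sexes in the same direction in both. Interaction adjusted p in edgeR for these 6 genes lay between 0.559 and 0.981, and a test that is not passed does not show that the differences are equal.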

How the data were processed

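Whole-number read counts per gene were deposited by the authors as a table with 1 column per library and no normalization. TopHat2 2.0.11, featureCounts and the dm6 build are named per the submitters' processing notes. No annotation, strand setting or treatment of multiply mapping reads is given in the sources used here, so overlapping, antisense and near-identical genes are uncertain; 33 of the 115 named genes overlap another tested gene, 24 of them on the opposite strand only. Of 16680 symbols, 16600 were placed on the BDGP6 annotation, and current symbols are printed. All 16 libraries were fitted with 1 mean per group by edgeR 4.0.16 in R 4.3.3 (filterByExpr, TMM factors, quasi-likelihood test, Benjamini-Hochberg adjustment, threshold 0.05). CPM values use the TMM factors, and errors are SD over 4 libraries. SE is the absolute log2 fold change divided by the square root of F. All pairs of replicates differed beyond sampling noise (chi-square over its degrees of freedom 70.6 to 306) and were kept apart. Simulated data were used to test the fit.

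Genes and the 46 lists were chosen with earlier results of these data known. The naming rule took the 15 largest called changes per direction without overlap and with a mean of at least 5 CPM in the higher group (at most 2 with only a CG number), up to 5 called members per direction and the most abundant member of each list, the 5 most abundant called genes and 3 X-linked called genes per direction, and fixed sex, region and yolk genes. Some of the genes it took are not described. Counting intervals and floors cover counting error only. Alternatives were DESeq2 size factors or total counts for scaling, 2 other filters, DESeq2 1.42.0, limma 3.58.1 (voom), the 8 control libraries alone, leaving out each library and, chosen after seeing the data, leaving out library 16. Sequences were not used here, so promoter motifs were not described.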

Additional observations from a re-analysis of the deposited data

Results flagged for a closer look

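For each named gene, the 4 libraries of each control group were examined for a library far from the other 3; chance flags about 1 in 20 groups, and 230 groups were examined. Among females, library 2 stood high in Yp3 (98.6 CPM) and ATPsynC (2850 CPM, against 1540 to 1700), library 3 in apolpp (26.1 CPM), DptA (69.8 CPM) and CG7017 (9.47 CPM), and library 4 in GstD2 (44.2 CPM); library 4 was low in Jon99Ci (4070 CPM). Among males, library 5 stood high in CG12057 (4.43 CPM), CG12374 (3540 CPM), RpL5 (3020 CPM), RpS2 (1930 CPM) and Mal-A6 (17200 CPM), library 6 in sut1 (53.6 CPM) and library 7 in Nop56 (35.9 CPM). Library 7 was low in NAAT1 (11.4 CPM) and FucTC (8.68 CPM), and library 8 in Cyp309a1 (772 CPM).

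For 17 named genes the sex difference of controls differed from that of the libraries labelled MycRNAi by the interaction test in edgeR (adjusted p below 0.05). The values are control minus MycRNAi differences of the log2 female-minus-male change. They were positive for Nop56 (1.05) and nop5 (1.01). They were negative for Bace (−3.45), LManIV (−4.38), LManVI (−2.61), LManI (−1.66), MtnD (−2.01), Mal-A4 (−1.63), Mal-A7 (−0.98), Mal-A8 (−0.98), Pgi (−1.42), Men (−1.41), sut1 (−0.83), crq (−0.80), Cyp6g1 (−1.22), Cyp309a1 (−1.21) and Ugt36A1 (−0.76).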

How the results depend on the processing

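Of 104 named genes called between control females and males, 89 were called under all 16 alternatives and none changed direction; 10 lost the call without at least 1 library and 9 with the 8 control libraries alone. The number of called genes was 959, 1363 with DESeq2 and 938 with limma voom, and 538 with the 8 control libraries alone, of which 513 were among the 959. Leaving out each control library gave 574 to 1036. Genes higher in females numbered 468, against 247 with the 8 control libraries alone, 311 without a filter on low counts and 259 to 588 when a library was left out. Genes higher in males numbered 491, against 291 with the 8 control libraries alone, 297 with total counts and 304 to 583 when a library was left out. X-linked calls numbered 225, against 139 with the 8 control libraries alone and 151 to 241 when a library was left out. Without library 16, 1292 genes were called. The fit to 8 libraries estimates the spread from the control libraries only. The causes of these shifts were not tested. No paired analysis was possible because the replicate numbers of females (1 to 4) and males (5 to 8) are not shared. Genes with few reads, such as CG6026 and fs(1)Yb, have fold changes that depth limits.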
